A study of Mus musculus with 9 samples.

Results

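Circular RNAs (circRNAs, here also called rings) from genes of the Zfp zinc finger group were described in mouse liver. A ring was a member when the deposited table gave it a single host gene whose name starts with Zfp followed by a digit, Zfp609 left out. This gave 123 rings from 53 host genes, of 11312 circRNAs from 3929 hosts or joint hosts in all. The 9 libraries came from livers of wild-type (WT) C57 BL6 mice, 8 weeks old, in 3 groups of 3. The Control group received saline. The APAP group received 500 mg/kg acetaminophen (APAP) by intraperitoneal injection, a model of liver injury by drug overdose. The dmPGE2+APAP group received the same dose of APAP and, 1 hour before it, 300 µg/kg dmPGE2, a stable analog of prostaglandin E2. Livers were taken 6 hours after APAP. Whole liver was sequenced, so fewer cells of a type and less RNA per cell cannot be told apart. The labels do not tie libraries to numbered animals, and p-values measure the spread between these libraries.

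Zfp genes code for proteins with C2H2 zinc fingers, short folds in which a pair of cysteines and a pair of histidines hold a zinc ion and whose arrays bind specific DNA sequences. Many of them also carry a KRAB box near the start of the protein, which recruits the corepressor Trim28 and through it histone methylation and gene silencing, above all of retroelements. In many such genes the fingers are coded by a single long last exon, while the start of the protein is split over short exons. A ring forms when the end of an exon is joined back to the start of the same or an earlier exon, and it is recognised by reads across that back-splice junction. Each ring was counted at its single junction, so its level carries no term for length.

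The joins of 8 of the rings that had reads in all 8 libraries other than Control 3 are printed, as reconstructed from the annotated exons of GENCODE M21 (build GRCm38, mm10), since these 30 bases are what a junction read has to cross. The last 15 bases before the join are in lower case and the first 15 bases after it are in capitals, 5′ to 3′ on the strand of the gene.
Zfp148 mmu_circ_0000684 (chr16:33421321-33434974, plus strand): gcactcaatgtccctGATAGAAGAGAAGAA
Zfp148 mmu_circ_0000685 (chr16:33421321-33468183, plus strand): agaagatccataccgGATAGAAGAGAAGAA
Zfp426 novel_circ_0014260 (chr9:20473028-20476478, minus strand): agatagttttcccagGTCCTTCAGAGGACT
Zfp292 mmu_circ_0001190 (chr4:34839332-34839986, minus strand): tggataaagagaaagACACTTCTTGAATAT
Zfp277 novel_circ_0002010 (chr12:40363134-40378874, minus strand): caaaaacacaaactgACAGTAAAGACTGTA
Zfp512 novel_circ_0011253 (chr5:31466232-31468240, plus strand): aatcataatagtctgGCGCAGGTGAAAAGG
Zfp276 novel_circ_0013478 (chr8:123264995-123267699, plus strand): agccaagccactgcaGGAGGAGCTGCCCAC
Zfp644 novel_circ_0010646 (chr5:106619540-106638635, minus strand): cattctccgatgcagACTAAAGGTGTTAAA
The 2 rings of Zfp148 share the bases after the join, because both begin at exon 2, and differ in the exon that is joined back to it. Zinc finger genes are close relatives, so each side of the join was also searched in the transcripts of other genes. Of the 92 rings whose ends could be placed on exons of 1 host transcript, 0 had both 25-base sides in another gene. In 1 ring, novel_circ_0010646 of Zfp644, the side before the join was found in another gene as well.

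The libraries held 69268 to 154449 back-splice reads, except Control 3, which held 4362. Count columns of the saline group carry a code that the labels do not explain and were assigned to it by elimination, with their own numbers 1 to 3. In Control 3 the smallest listed count, 2 reads, already equals a sizeable level, and a gene listed at 0 there cannot be read as absent. All 10 hepatocyte marker genes on the list were hosts of rings, and their summed level ranged from 17527 to 23117 CPM (back-splice reads per 1000000 of the library's circRNA total) outside Control 3. Of 7 Kupffer cell and macrophage markers 1 was a host, as were 2 of 6 neutrophil and lymphocyte, 5 of 7 sinusoidal endothelial, 0 of 6 stellate cell and 1 of 5 cholangiocyte markers. The only Kupffer cell and macrophage marker with rings, Adgre1, gave 686 to 816 CPM in Control 1 and 2 and was listed at 0 in Control 3. It gave 245 to 975 CPM in APAP and 696 to 967 in dmPGE2+APAP. The part of these cells in the results was not tested.

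Zfp rings took nearly the same share of back-splice reads in every library. The share was 1.16%, 1.07% and 1.19% in Control 1 to 3, 1.13%, 1.17% and 1.17% in APAP 1 to 3, and 1.14%, 1.23% and 1.19% in dmPGE2+APAP 1 to 3. The groups overlapped, with means of 1.14% ± 0.0628 (SD, n = 3), 1.16% ± 0.0197 and 1.19% ± 0.0456. In Control 3 the value rests on 52 reads and its 95% Wilson interval runs from 0.910% to 1.56%, which covers the shares of all other libraries. Intervals cover counting error only and not the spread between libraries. They are too narrow where reads are not independent molecules. The next zinc finger name families were smaller: 9 of them together (Zbtb, Zkscan and Zscan, Zc3h, Zmym, Zfhx, Zswim, Zdhhc, Znf and Zmiz, 84 rings of 39 hosts) took 0.160% to 0.638% per library. Of these Zbtb was the largest by its median over the 8 deeper libraries, at 0.192% against 1.16% for Zfp.

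**Figure D1:**
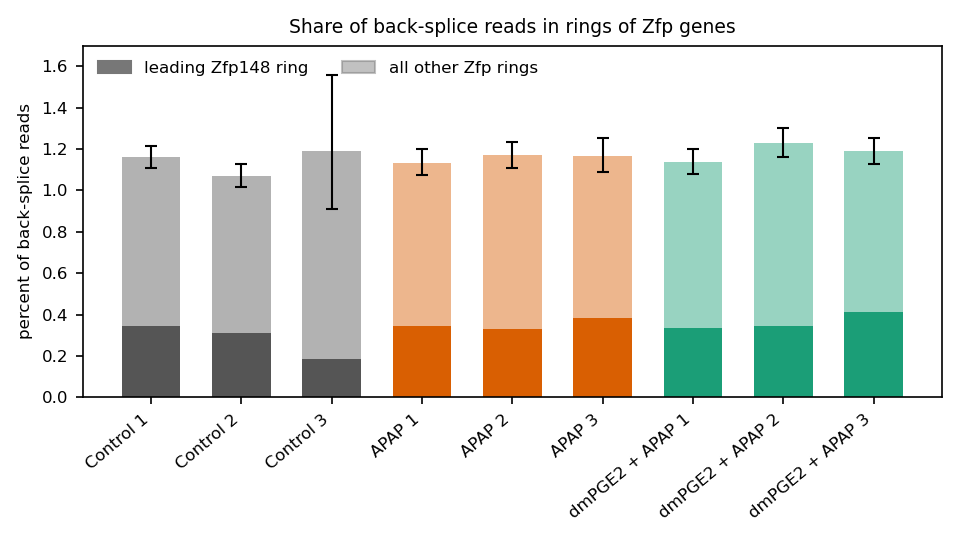
Percent of each library's back-splice reads that fall in Zfp rings, by library. The dark part of a bar is the leading ring of Zfp148, the light part all other Zfp rings, and the black bar is the 95% Wilson interval of the total, widest in Control 3 (0.910% to 1.56%).

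Most members were rare. Of the 123 rings, 43 (35.0%) were listed in 1 library only, while 38.8% of the 10931 other rings with 1 host were. A total of 16 rings had reads in all 8 libraries other than Control 3, and 7 had reads in all 9. The table listed 46 to 57 Zfp rings in each library except APAP 3 (30) and Control 3 (15). These 2 libraries had the fewest reads. Drawn at random down to the 69268 reads of APAP 3, the other deeper libraries still listed 45 to 56 Zfp rings, against 30. Of all rings they then listed 4356 to 5133, against 3181 in APAP 3. The reason for the lower number in APAP 3 was not tested. The test filter of at least 5 reads in at least 3 libraries was passed by 53 rings and 29 hosts, that is 43.1% of the rings against 38.3% of other rings. The other 70 rings and 24 hosts did not enter the tests. Outside Control 3, 17 of the 53 hosts (32.1%) had reads in 1 group only, against 24.6% of 3803 other hosts. Of the 17, 6 had reads only in Control, 4 only in APAP and 7 only in dmPGE2+APAP. The highest of them held 12 reads in all.

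A single gene held the largest part of the family's reads. Zfp148, a transcription factor that binds GC-rich promoter elements, had a mean of 4101 CPM over the 8 deeper libraries, 35.4% of the family, and ranked 33rd among all hosts. Its level was 3924, 3547 and 2522 CPM in Control 1 to 3, 4031, 4020.0 and 4359.9 CPM in APAP, and 4099, 3925 and 4905 CPM in dmPGE2+APAP. Control 3, with 11 reads, was the lowest library. Control 1 and 2 lay below all treated libraries, by a small margin, and the 2 treated groups overlapped. Its leading ring, mmu_circ_0000684, made up 85.8% of the host and ranked 28th among all rings. This ring had 533, 407 and 8 reads in Control, 375, 364 and 266 after APAP and 406, 343 and 475 after dmPGE2+APAP. It joins exon 4 of 9 back to exon 2 and holds 567 bases, of which 234 lie before the start codon and 333 are coding.

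Below Zfp148 the hosts fell off in steps. Zfp644, whose human counterpart binds the histone methyltransferases G9a and GLP, had a mean of 1290 CPM. The KRAB protein Zfp426 followed with 995 CPM, Zfp292 with 877 CPM and Zfp236 with 847 CPM. Zfp512 reached 439.6 CPM and Zfp277, a partner of the Polycomb protein Bmi1, 428 CPM. The remaining hosts of the first 12 were Zfp276 (303 CPM), Zfp827 (199.6), Zfp141 (195), Zfp68 (182) and Zfp532 (172), and these 12 together made up 86.6% of the family's mean level. Neighbours in this order, such as Zfp426 and Zfp292 or Zfp512 and Zfp277, overlapped between libraries.

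The spread between libraries differed among these hosts. Zfp292 was the steadiest, with 822, 869 and 688 CPM in Control, 893, 859 and 996 CPM in APAP and 846, 908 and 819 CPM in dmPGE2+APAP. Its values stayed within a narrow band and the groups overlapped. Zfp426 read 1269, 762 and 0 CPM in Control, 837, 1124 and 1386 CPM in APAP and 1012, 787 and 784 CPM in dmPGE2+APAP. Control 3, listed at 0, was its only library without reads, and all groups overlapped. Zfp277 had 114, 26 and 0 reads in Control, 36, 33 and 33 after APAP and 45, 27 and 84 after dmPGE2+APAP. In CPM, Control 1 and 2 lay further apart than any pair of treated libraries. Zfp276 was highest in APAP 3, at 707 CPM, and lay between 138 and 459 CPM elsewhere.

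**Figure D2:**
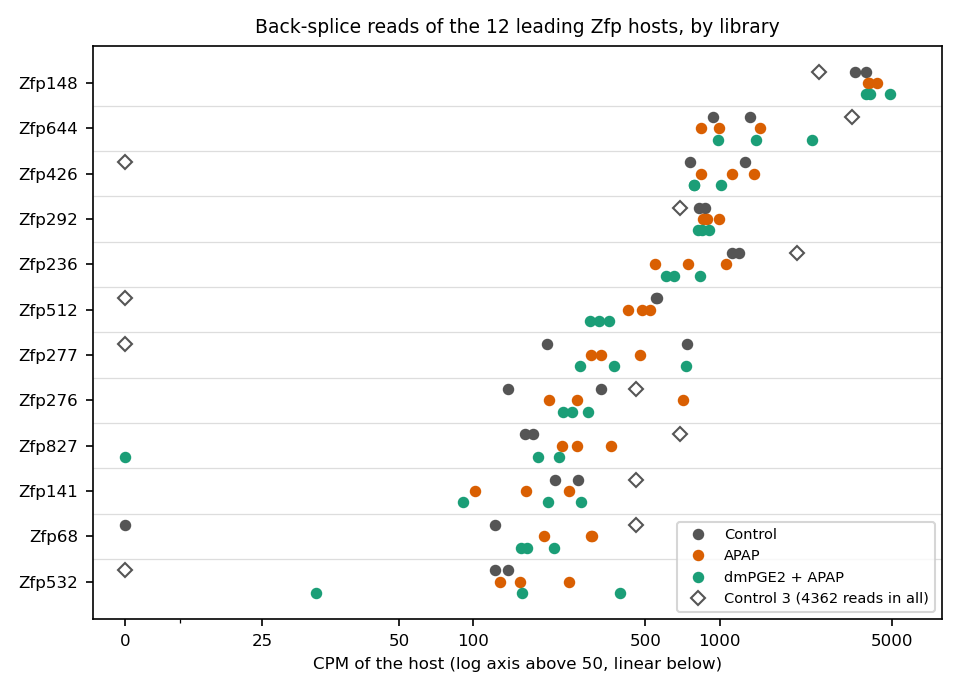
Level of the 12 leading Zfp hosts in each library, in CPM on an axis that is logarithmic above 50 and linear below. Points are libraries coloured by group, the open diamond is Control 3; the order from Zfp148 to Zfp532 follows the mean over the other 8 libraries, and points of the 3 groups mix in most rows.

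Most hosts gave few rings. A total of 30 hosts (56.6%) had 1 ring, against 44.0% of other hosts, while Zfp236 had 16 rings, Zfp644 11, Zfp148 10 and Zfp638 9. These 4 genes held 46 of the 123 rings; the fifth in rank, with 4 rings, was tied between Zfp292 and Zfp451. The reads were concentrated in 1 ring in Zfp148 (85.8%), Zfp426 (90.5%), Zfp292 (91.1%) and Zfp512 (96.0%). They were spread over several rings in Zfp236, where the leading ring mmu_circ_0000906 made up 35.5%, in Zfp644 (35.2%) and in Zfp638 (23.0%). Zfp638 is a nucleic acid binding protein that takes part in silencing unintegrated retroviral DNA, and Zfp451 is a SUMO ligase. In Zfp236, 8 of the 13 placed rings began at exon 2 and ended at 8 different exons, up to novel_circ_0005952, which reaches from exon 2 to exon 23 (22 exons, 4121 bases). In Zfp644 the 6 placed rings lay on 3 transcripts and had 5 different starts, and in Zfp148 4 of 7 ended at exon 7.

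Of the 123 rings, 109 were exonic by the table and 14 (11.4%) intronic, from 6 hosts, against 4.89% intronic among other rings. Among the intronic ones, the 3 rings of Zfp697 lie on the strand opposite to that gene (chr3:98382461-98753812, plus strand). They overlap the minus-strand genes Hsd3b5 and Hsd3b2, hydroxysteroid dehydrogenases expressed in liver. The most abundant, novel_circ_0009579 (chr3:98618189-98622167, 90 reads), ends at an annotated exon edge of Hsd3b5, so its assignment to Zfp697 rests on overlap alone. The libraries were made with strand marked, per the labels' protocols, but how the caller used strand is not given in the sources used here.

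Placed Zfp rings were made of internal exons, as were nearly all other placed rings. For 92 of 109 exonic rings (84.4%, against 93.9% of 10397 other exonic rings) both ends lay on exon edges of 1 annotated host transcript. None of these 92 (0) included the first or the last exon, and only 0.113% and 0.0512% of other placed rings did. The median ring spanned 3 annotated exons and 486 bases, against 4 exons and 500 bases in the other rings. Of the placed rings, 33 (35.9%) began at exon 2, against 28.0% of others. A total of 28 (30.4%) held the start codon, against 12.2% of other rings and 29.2% of rings of the other zinc finger name families. Host transcripts had fewer exons, with a median over rings of 11 against 18. The median ring began at exon 3, against exon 4 in other rings. The introns before the rings were longer, with a median of 8922 bases against 6490.5. These are descriptions of annotated exons between the ring's ends, and the exons truly kept in a ring were not observed. In 58 of the 92 placed rings the table lists fewer features than annotated exons, and in 30 the numbers are equal.

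The fewest annotated exons were 1, in 4 rings, for example novel_circ_0007499 of Zfp142 (314 bases of exon 2) and novel_circ_0012436 of Zfp638 (1513 bases). The shortest ring was novel_circ_0010653 of Zfp644, with 125 bases, and the longest mmu_circ_0000912 of Zfp407, with 4835 bases in 2 exons. The table's own columns gave a median of 2 listed features per exonic Zfp ring (highest 6) and a median deposited spliced length of 287 bases, against 2 and 296 in other exonic rings. Only 63 of the 123 feature lists reached both ends of the ring. The deposited length equalled the summed end minus start of the listed features in 104 rings, which is 1 base short per feature, and was larger than the listed features in 13 rings, all of them with mmu_circ identifiers. For these reasons the annotated exons were used for all lengths and exon numbers named here unless stated.

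**Figure D3:**
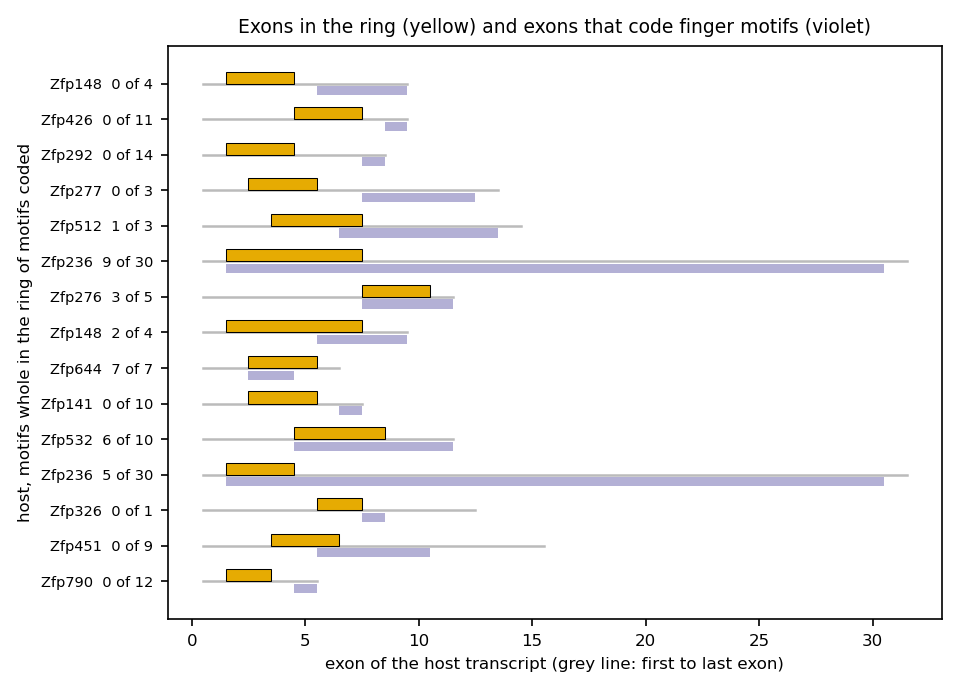
Annotated exons of each ring (yellow) on the exons of its host transcript (grey line), with the span of exons that code finger motifs (violet), for the 15 placed rings with reads in all 8 libraries other than Control 3. Labels give the motifs that lie whole in the ring out of those coded, for example 0 of 4 for the leading ring of Zfp148 and 7 of 7 for Zfp644; in Zfp148, Zfp426, Zfp292, Zfp277, Zfp141, Zfp326 and Zfp790 at least 1 ring lies wholly before the violet span.

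Most of the level of placed rings lay in rings without a whole finger motif. C2H2-spaced motifs were searched in the translated host transcripts (cysteine, 2 to 4 residues, cysteine, 12 residues, histidine, 3 to 5 residues, histidine). Of the 92 placed rings, 91 from 42 hosts had a transcript with such motifs, with a median of 7 and up to 36 in Zfp142. Of these 91 rings, 44 (48.4%) held 0 whole motifs and 47, from 21 hosts, held at least 1. A total of 29 rings from 22 hosts lay before every motif, and 8 rings held all motifs of the host. In 12 hosts, with 15 placed rings, all motifs were coded in the last exon, which no ring contained. Only 0.0512% of other placed rings contained a last exon, so 0 motifs in these 15 rings followed from where the motifs are coded. By number rings with a whole motif were slightly ahead, but by abundance rings without one led. Rings with 0 whole motifs made up 69.3% of the mean level of these rings, or 56.6% when Zfp148 was left out. Rings with the start codon made up 47.8% of the level of placed rings, but 15.6% without Zfp148. Motif and start codon values take all annotated exons as kept, whereas 58 of the 92 placed rings had fewer listed features than annotated exons.

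The leading rings show both kinds. The ring mmu_circ_0000684 of Zfp148 held 0 of 4 motifs, since the first motif is coded in exon 6 and the ring ends at exon 4. The ring mmu_circ_0000685 of the same gene, which ends at exon 7, held 2 of 4 by its 6 annotated exons of 901 bases. The table lists 4 features of 426 bases for it, which reach both ends, so not all annotated exons may be kept. The ring of Zfp426 covers exons 5 to 7 of 9 and held 0 of 11 motifs, all coded in exon 9. The ring of Zfp292 covers exons 2 to 4 of 8 and held 0 of 14, all coded in exon 8. The single ring of Zfp141 held 0 of 10 and that of Zfp790 0 of 12. On the other side, mmu_circ_0000906 of Zfp236 held 9 of 30 motifs and novel_circ_0010646 of Zfp644 all 7. The ring novel_circ_0013478 of Zfp276 (chr8:123264995-123267699, plus strand, exons 8 to 10 of 11) held 3 of 5 in only 294 bases. Its annotated exons are printed whole, because the table's listed features add up to the same 294 bases, and the stretches that code a whole motif are in capitals.
Zfp276 novel_circ_0013478: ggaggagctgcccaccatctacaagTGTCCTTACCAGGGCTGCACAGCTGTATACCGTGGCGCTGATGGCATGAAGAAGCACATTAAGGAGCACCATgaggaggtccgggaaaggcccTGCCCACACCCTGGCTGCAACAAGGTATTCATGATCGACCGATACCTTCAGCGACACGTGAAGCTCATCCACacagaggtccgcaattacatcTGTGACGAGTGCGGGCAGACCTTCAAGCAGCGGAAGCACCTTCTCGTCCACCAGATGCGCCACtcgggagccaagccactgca
This ring had 43, 18 and 2 reads in Control, 22, 29 and 49 after APAP and 28, 29 and 29 after dmPGE2+APAP. The groups overlapped, and APAP 3 held the most reads although it was the shallowest of the 8 deeper libraries.

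For each junction the deposited file further gives non-junction reads, those that span its sites without the back-splice, and a circular fraction was taken as junction reads over junction plus non-junction reads. A usable list was present for 115 of the 123 rings. Pooled over exonic Zfp rings, the fraction was 44.6% and 51.0% in Control 1 and 2, 43.5%, 48.7% and 49.0% in APAP, and 47.5%, 48.9% and 48.1% in dmPGE2+APAP. The groups overlapped. Other exonic rings gave 21.9% and 24.0% in Control 1 and 2 and between 10.5% and 22.3% in the treated libraries, below every Zfp value of these 8 libraries, and without the leading Zfp148 ring the Zfp values were 35.4% to 43.1%. The medians over rings lay closer, at 24.5% to 49.0% for Zfp rings and 19.4% to 26.5% for others. In Control 1, the deepest library, the Zfp median (24.5%) was not above that of others (25%), whereas it was in the other 7 of the 8 libraries. In Control 3 the pooled fraction was 4.94% for Zfp and 1.35% for others. In that library 523 other exonic rings had 2630 junction and 192378 non-junction reads, against 98155 and 350399 over 3657 rings in Control 1. Control 3 was thus short of back-splice reads but not of non-junction reads at its listed sites. Why this was so was not tested.

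Rings of one family ranged widely in this fraction. The leading ring of Zfp148 had a median of 87.3% over the 8 deeper libraries (84.3% to 92.7%). The rings of Zfp426 (median 81.8%), Zfp292 (80.2%) and Zfp277 (84.1%) were similar. Lower medians were found for novel_circ_0013478 of Zfp276 (42.8%), mmu_circ_0000906 of Zfp236 (44.4%) and novel_circ_0010646 of Zfp644 (28.2%), which hold motifs. Other rings that hold motifs were high, with 74.0% for novel_circ_0011253 of Zfp512 (1 of 3 motifs) and 83.9% for mmu_circ_0000884 of Zfp532 (6 of 10). A ring of Zfp827, mmu_circ_0001698, had a median of 100% over 7 libraries. Zfp827 codes for a protein whose human counterpart recruits the NuRD complex to telomeres.

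The first comparison asked which rings differed between APAP and saline. No Zfp ring (0 of 53) and no Zfp host (0 of 29) passed an adjusted p of 0.05 in edgeR's quasi-likelihood test. Of all circRNAs 0.139% and of all host sums 0.339% passed in this comparison, so a count of 0 is close to that background. At an unadjusted edgeR p under 0.05 there were 5 of 53 Zfp rings and 0 of 29 hosts. Among all rings 224 of 4331 (5.17%) reached it, and among all hosts 126 of 2358 (5.34%). DESeq2 and limma-voom called 0 Zfp rings and 0 hosts as well. The median fitted log2 fold change was 0.32 over Zfp rings and 0.16 over all rings tested, and 0.20 and 0.15 for hosts. In limma-voom the ring medians were -0.09 and -0.14. Without Control 3 they were 0.09 over Zfp rings and -0.06 over all rings, and 0.06 and -0.04 for hosts. The Zfp ring median also turned without APAP 1 (-0.03) or APAP 2 (-0.09).

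The hosts with the smallest p in that comparison were Zfp395, Zfp142, Zfp68 and Zfp236. Zfp236 had 1204, 1123 and 2063 CPM in Control, 745, 1059.8 and 549 CPM in APAP and 606, 656 and 836 CPM in dmPGE2+APAP. All Control values lay above all values of the treated groups, although Control 3 rests on 9 reads. The share of all tested hosts with such a separation was not counted. The log2 fold change of Zfp236 was -0.60 ± 0.38 (SE) for APAP against Control (edgeR adjusted p = 0.965), and -0.92 without APAP 2. Zfp68 had 0, 16 and 2 reads in Control, 21, 33 and 21 after APAP and 20, 21 and 18 after dmPGE2+APAP. Control 1 had none although it was the deepest library, while the 2 reads of Control 3 equal 459 CPM, the highest value of all libraries. All groups overlapped in CPM. Its log2 fold change was 1.64 ± 0.98 for APAP against Control (edgeR adjusted p = 0.943), and it was 0.71 without Control 1 and 3.16 without Control 2.

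Zfp395 and Zfp142 are cases of few reads. Zfp395 had 15, 0 and 0 reads in Control, 0 in all APAP libraries and 0, 11 and 6 in dmPGE2+APAP. Zfp142 had 0 in Control, 7, 10 and 0 reads in APAP and 0, 5 and 0 in dmPGE2+APAP. Both hosts passed the test filter only through their libraries with reads, so the filter itself favoured a group at 0. With a whole group listed at 0, no fold is given: fitted values depend on the prior count, and the table lists no count of 1. They were also the largest fitted fall (Zfp395) and rise (Zfp142), with edgeR adjusted p = 0.869 and 0.908.

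The second comparison asked what dmPGE2 given before APAP changed against APAP alone. Again 0 of 53 rings and 0 of 29 hosts passed, where 0.0693% of all circRNAs and 0.127% of all hosts did. At an unadjusted edgeR p under 0.05 there were 2 of 53 Zfp rings and 0 of 29 hosts (3.81% of all rings, 2.71% of all hosts). DESeq2 and limma-voom called 0 of both. The median log2 fold change was 0.33 over Zfp rings and 0.08 over all rings, and 0.16 and 0.03 for hosts. The Zfp ring median ranged from 0.03 (without dmPGE2+APAP 2) to 0.40 when 1 library was left out, and the Zfp host median turned to -0.08 without dmPGE2+APAP 3 and to -0.03 without APAP 1. The smallest p among hosts belonged to Zfp395, Zfp809, Zfp644 and Zfp638, with edgeR adjusted p = 0.9998 for each. Zfp809, a KRAB protein that silences murine retroviruses, was listed at 0 in all APAP libraries and had 4, 5 and 5 reads after dmPGE2+APAP. In Control it had 0, 5 and 0 reads. It passed the test filter only through Control 2 and dmPGE2+APAP 2 and 3, so the filter itself left room for 0 in APAP.

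Zfp644 read 939, 1323 and 3439 CPM in Control, 1463, 996 and 837 CPM in APAP and 1402, 2371 and 984 CPM in dmPGE2+APAP. The 2 treated groups overlapped, and the high value in Control 3 comes from 15 reads. Its log2 fold change was 0.52 ± 0.33 against APAP alone, and it was 0.81 without APAP 1 and 0.15 without dmPGE2+APAP 2. Zfp638 had 17, 9 and 0 reads in APAP and 28, 14 and 28 in dmPGE2+APAP, a log2 fold change of 1.32 ± 0.98, which was 2.21 without APAP 1 and 0.78 without APAP 3. The largest fitted fall was that of Zfp280d, with 19, 20 and 0 reads in APAP and 0, 0 and 6 in dmPGE2+APAP, a log2 fold change of -2.69 ± 2.03 (edgeR adjusted p = 0.9998). For Zfp280d the groups overlapped because APAP 3 lacked reads, and without dmPGE2+APAP 3 the gene is listed at 0 in that whole group, so that no fold can be given. For Zfp638 they overlapped in CPM, since APAP 1 (156 CPM) lay above dmPGE2+APAP 2 (141 CPM).

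Zfp512 is named after its values were seen. It had 557, 554 and 0 CPM in Control, 423, 484 and 519.7 CPM in APAP and 299, 323 and 357 CPM in dmPGE2+APAP. Outside Control 3, where the gene was listed at 0, the 3 groups did not overlap and dmPGE2+APAP was lowest. This leaves 2 Control libraries. The share of all tested hosts whose groups separate in this way was not counted, so the separation is a description only. The log2 fold change was -0.52 ± 0.53 against APAP and -0.52 ± 0.54 against Control, the latter -0.32 without Control 1 and -0.80 without Control 3. Both differences were within their errors, and the adjusted p was 0.9998 and 1 in edgeR.

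The third comparison set dmPGE2+APAP against saline. It shares its libraries with the first 2 comparisons. Here 0 of 53 rings and 0 of 29 hosts passed, where 0.115% of all circRNAs and 0.17% of all hosts did. At an unadjusted edgeR p under 0.05 there were 2 of 53 Zfp rings and 1 of 29 hosts (4.34% of all rings, 4.24% of all hosts). DESeq2 and limma-voom called 0 of both. The median log2 fold change was 0.30 over Zfp rings and 0.24 over all rings, and 0.41 and 0.20 for hosts. Without Control 3 these medians were 0.11 and 0.0047 for rings and 0.16 and 0.03 for hosts. Without dmPGE2+APAP 2 the Zfp medians were 0.09 for rings and 0.11 for hosts, and without Control 1 they were 0.73 and 0.59. The host was Zfp236, with the values given above, and a log2 fold change of -0.76 ± 0.38 (edgeR adjusted p = 1).

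Zfp346, Zfp148 and Zfp142 followed. Zfp346, which codes for a protein that binds double-stranded RNA, was listed at 0 in all Control libraries. It had 0, 4 and 0 reads in APAP and 11, 7 and 8 reads after dmPGE2. Every dmPGE2+APAP library had more reads than any other library, but no fold is given against a group at 0 (edgeR adjusted p = 1). Zfp346 passed the test filter only through the 3 dmPGE2+APAP libraries, so the filter itself favoured this pattern. Zfp346 was also the largest fitted rise. The largest fall was Zfp871, with 25, 21 and 2 reads in Control and 10, 5 and 15 in dmPGE2+APAP (log2 fold change -1.06 ± 1.22, edgeR adjusted p = 1). Zfp148 had a log2 fold change of 0.41 ± 0.25 (edgeR adjusted p = 1), which was 0.17 without Control 3 and 0.61 without Control 1. The joint test for any difference between the 3 groups also called 0 rings and 0 hosts, where 0.208% of all circRNAs and 0.339% of all hosts passed. At an unadjusted edgeR p under 0.05 it gave 1 of 53 Zfp rings and 0 of 29 hosts (2.66% of all rings, 3.14% of all hosts). DESeq2 and limma-voom called 0.

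**Figure D4:**
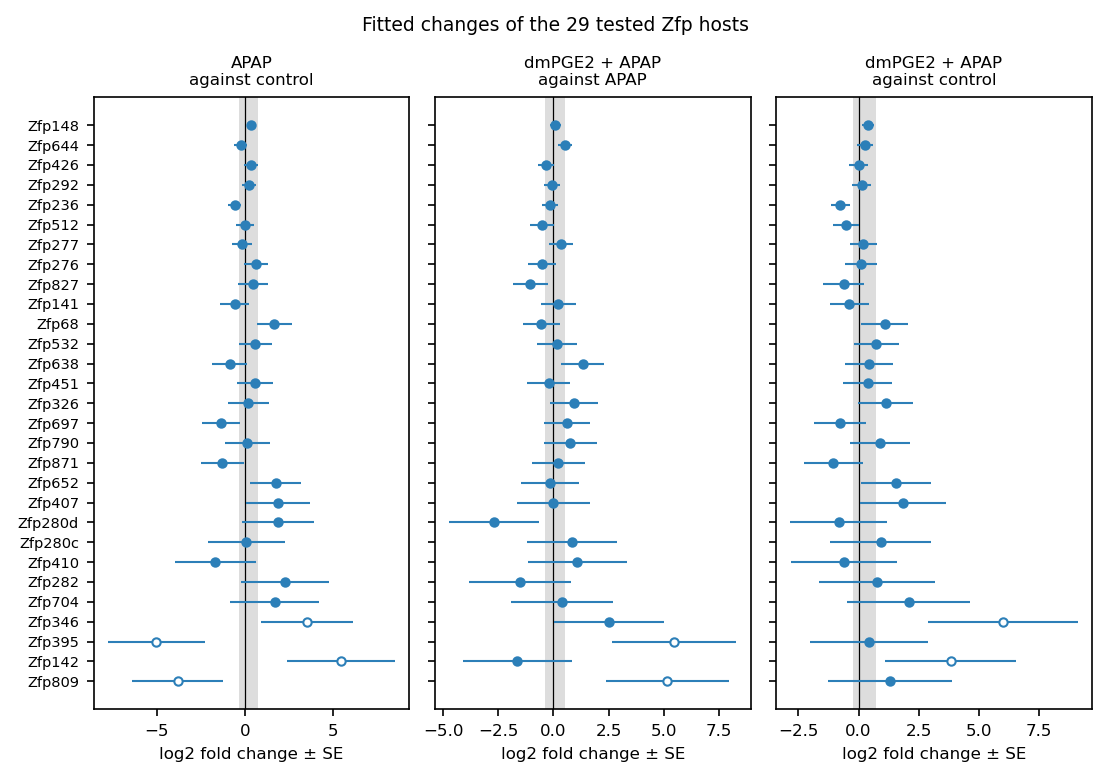
Fitted log2 fold change with its SE for the 29 tested Zfp hosts, ordered by mean level, in the 3 comparisons; the grey band holds the middle 50% of all tested hosts and open points mark hosts with 0 reads in a whole group. Hosts with many reads lie near 0, and the wide bars belong to hosts with few reads such as Zfp395 and Zfp142.

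The smallest adjusted p of any Zfp ring was that of mmu_circ_0001382 of Zfp644 (chr5:106634831-106638635, minus strand, annotated exons 3 to 4), which is named after its values were seen. It had 0 reads in all Control libraries, 30, 0 and 0 in APAP and 38, 30 and 0 in dmPGE2+APAP. The ring was thus listed at 0 or had at least 30 reads, and both treated groups contained libraries of either kind. It passed the test filter only through the 3 libraries with reads, all of them treated. The filter itself therefore favoured 0 reads in Control. The adjusted p was 0.069 for dmPGE2+APAP against Control and 0.26 for APAP against Control in edgeR. It passed for dmPGE2+APAP against Control without TMM scaling (adjusted p = 0.0352) and when APAP 2 (0.0415), APAP 3 (0.0189) or dmPGE2+APAP 3 (0.0123) was left out, in edgeR each time. With DESeq2 it was 1 and with limma-voom 0.672, and without any 1 of the Control libraries it was 0.315 to 0.560 in edgeR. The call thus changed with the tool, the scaling and libraries that hold no read of the ring.

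Rings that share its splice sites had other patterns. The ring mmu_circ_0001379, which starts at the same acceptor, had 0, 20 and 0 reads in Control, 27, 0 and 0 after APAP and 36, 27 and 0 after dmPGE2+APAP. It was present in the same 3 treated libraries and in Control 2. The ring novel_circ_0010646, which also starts there, had reads in every library, with 48, 40 and 7 in Control, 19, 15 and 10 in APAP and 26, 46 and 31 in dmPGE2+APAP. The ring mmu_circ_0001383, which shares the end of mmu_circ_0001382, had 20, 18 and 3 reads in Control, 31, 18 and 0 after APAP and 17, 27 and 13 after dmPGE2+APAP. Its groups overlapped. The annotated exon lengths of these rings are 3632 bases for mmu_circ_0001382 and 3693 for mmu_circ_0001383, both with all 7 motifs, while the table lists 1 feature of 356 and 61 bases for them.

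**Figure D5:**
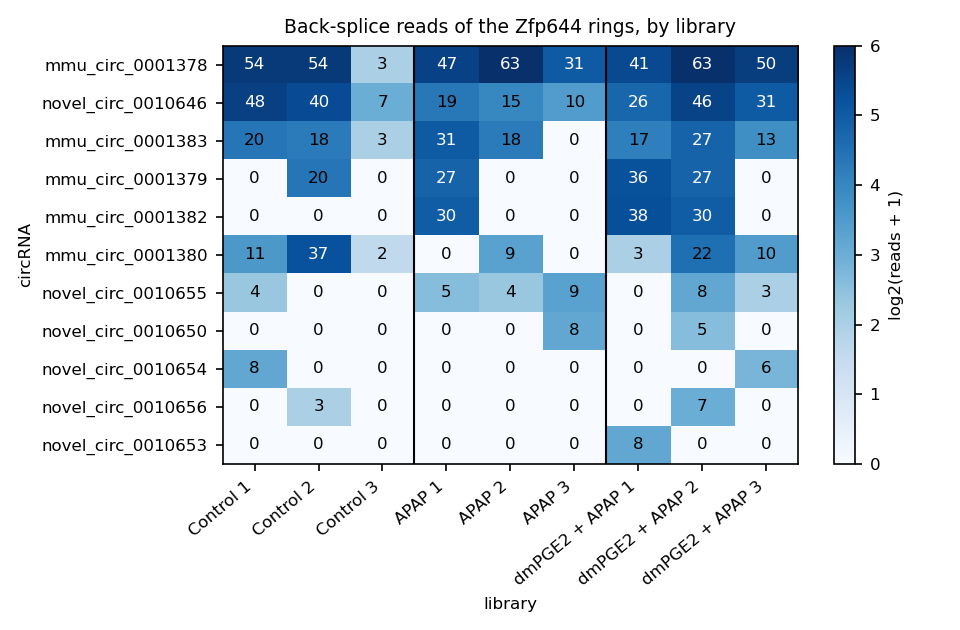
Back-splice reads of the 11 rings of Zfp644 (rows) in each library (columns), with the reads printed in each cell and the colour giving log2(reads + 1). The rings mmu_circ_0001379 and mmu_circ_0001382 have reads in APAP 1 and dmPGE2+APAP 1 and 2 and are listed at 0 in the other treated libraries, whereas mmu_circ_0001378 and novel_circ_0010646 have reads in all 9.

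The partners of KRAB zinc finger proteins in silencing were looked at on the same scale, from a list of 36 gene symbols. Tasor stands in it under its former symbol Fam208a as well. Of these, 16 were hosts of rings and 12 could be tested, and 0 passed in any of the 3 comparisons in edgeR. Trim28, the corepressor that KRAB boxes bind, was not among the listed hosts. The lowest p was that of Tasor, a subunit of the HUSH silencing complex, with a log2 fold change of -0.92 ± 0.41 for APAP against Control (edgeR adjusted p = 0.869). The host genes whose log2(CPM + 10) followed Zfp148 most closely over the 8 deeper libraries were Gpcpd1 (Pearson r = 0.954), Kif16b (0.861), Pag1 (0.835), Usp48 (0.819) and Lmbr1 (0.816), out of 2357 compared. These values describe 8 libraries that share scaling by their totals, and the level of Zfp148 hardly varied among them.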

How the data were processed

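Ribosomal RNA was removed from 1 µg of total RNA per library, per the labels' protocols, which name no enzyme against linear RNA. The authors deposited whole-number counts of back-splice reads per circRNA, left unscaled, whose smallest value above 0 was 2. Per the submitters' processing notes, HISAT2 and the build GRCm38 (mm10) were used, in roles not stated; the caller's name is not given in the sources used here. Deposited starts were raised by 1.

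Members and lists were chosen with earlier results of these data known. Features reaching 5 reads in 3 or more of 9 libraries (4331 circRNAs, 2358 host sums) entered edgeR 4.0.16 in R 4.3.3 (TMM, quasi-likelihood F test, all 9 libraries in 1 fit, Benjamini-Hochberg over all features, threshold 0.05). The SE is the absolute log2 fold change divided by the square root of F. The code was tested on simulated data, with a spread set in advance rather than taken from these libraries. For APAP against Control it recovered 11 of 100 rings and 14 of 100 host sums changed 4-fold. At 16-fold it recovered 69 and 80 of 100. A count of 0 calls therefore does not show that changes of such sizes were absent. Alternatives were DESeq2 1.42.0, limma-voom 3.58.1, no TMM, no filter, a minimum of 10 reads, the replicate number as a block, and leaving out each library. Rings were placed on GENCODE M21 transcripts. Hosts were named when among the 12 highest by mean CPM, the 5 with most rings, the 4 smallest p or the largest fitted rise or fall in a comparison; rings for extremes of exon number or length. Shares in a single library have 95% Wilson intervals.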

Additional observations from a re-analysis of the deposited data

How the results depend on the processing

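The count of Zfp rings and hosts past the threshold stayed at 0 with DESeq2, limma-voom, no filter and the minimum of 10 reads in all 3 comparisons and the joint test. Without TMM scaling it was 1 ring for dmPGE2+APAP against Control. Leaving out 1 library gave 0 to 1 rings there and 0 to 1 in the joint test, 1 only without dmPGE2+APAP 3, and 0 to 0 elsewhere. Scaling without TMM lowered the median log2 fold change of all rings for dmPGE2+APAP against Control from 0.24 to 0.12. No log2 fold change named for a single gene or ring, in the alternatives run for it, changed sign, but medians over Zfp or over all features did, as given beside them.

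The share of reads in Zfp rings fell from 1.14%, 1.16% and 1.19% (Control, APAP, dmPGE2+APAP) to 0.861%, 0.803% and 0.821% without the leading ring and to 1.05%, 1.09% and 1.10% with filtered rings only. It ranged over 1.12% to 1.18%, 1.15% to 1.17% and 1.16% to 1.21% when 1 library was left out, and moved less than the SD without the Zfp697 rings, a choice made after seeing the data. With filtered rings only, the most rings of a host fell from 16 to 8. Among mmu_circ rings only, 25% of Zfp rings and 19.2% of others held the start codon.

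With the replicate block the counts were 0 too. Same-numbered libraries did not deviate together (correlations -0.03 to 0.02, against -0.03 to 0.04 for different numbers), so the numbers were not taken as pairs. The number of back-splice reads limits Control 3 most, where 1 read equals 229 CPM. Its TMM factor for circRNAs was 2.09, against 0.870 to 1.05 in the other libraries.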
